A study of Mus musculus with 10 samples.

Results

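The genes of the interleukin 1 (IL1) family and of the inflammasome described here are the 10 rows of the gene table named Il1a, Il1b, Il18, Il33, Il1rn, Il1r1, Il1r2, Il1rl1, Nlrp3 and Casp1, of 54532 rows in all. They were chosen by name, and each was found exactly as named. Expression was measured by RNA sequencing in spleens of 5 DUSP6 KO mice (Dusp6tm1Jmol, a germline knockout allele, which the labels name DUSP6 Knockdown) and of 5 WT mice (C57BL/6J), 8 to 12 weeks old by the study's methods, with 1 library per mouse. All 10 mice had KRN serum-induced arthritis (KSIA): they received 100 µL of serum of arthritic KRN x NOD F1 mice by intraperitoneal injection on days 0 and 2, and the spleens were taken on day 9. There was no group without serum and the labels do not give the sex of each mouse, so the comparison is of the 2 genotypes in arthritic mice only.

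IL1α and IL1β are the founding ligands of the family. Both signal through the receptor encoded by Il1r1, while the receptor antagonist (Il1rn) occupies that receptor without signaling and the decoy receptor (Il1r2) binds ligand without signaling. IL18 and IL33 are related ligands with receptors of their own, and IL33 is bound by ST2, the product of Il1rl1. The precursors of IL1β and IL18 are cut by caspase 1 (Casp1), which is activated on inflammasomes such as the one built by the sensor NLRP3. In the spleen, IL1β is made mainly by myeloid cells, IL33 is stored in the nuclei of stromal cells, and ST2 is known from mast cells, group 2 innate lymphoid cells and regulatory T cells.

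Values are given as FPKM, fragments per kilobase of gene scaled to the size of the library, as deposited by the authors, and mice in the order 26, 21, 73, 01 and 03 (DUSP6 KO) and 65, 67, 73, 77 and 83 (WT). Libraries held 14990474 to 19822673 reads, recovered from the FPKM steps, with no difference in mean depth between the genotypes that exceeded the spread (two-sided exact permutation test, p = 0.60). Dusp6 was at 0.308 to 0.624 FPKM in DUSP6 KO against 16.6 to 24.0 FPKM in WT, as the labels have it. The markers of B cells (summed level 614 to 1552 FPKM) and of red pulp macrophages (1171 to 1866 FPKM) were present in every library, as the label spleen requires. The WT 67 library stood apart with 13131 FPKM summed over 7 exocrine pancreas markers. WT 65 came next at 162 FPKM, and the others were at 9.52 to 26.2 FPKM. Values without WT 67 are given for Il1r2 and for the genes whose estimate it moved most. In whole spleens, fewer cells of a type and less RNA per cell cannot be told apart.

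None of the 10 genes differed between DUSP6 KO and WT spleens at an adjusted p of 0.05 or less (limma on log2(FPKM + 0.1), Benjamini-Hochberg over the 21296 genes whose mean reached 0.1 FPKM), a threshold that 0.0704% of all tested genes passed, and limma voom on the recovered reads called 0 of them as well. At an unadjusted limma p under 0.05, 1 of the 10 was lower in DUSP6 KO (Il1r2) and 0 were higher, where 5.66% of all tested genes passed, 3.03% lower and 2.62% higher. The decoy receptor gene Il1r2 had the largest difference, at 0.581 of the WT level. All 10 genes passed the expression filter, 5 had a log2 difference above 0 and 5 below, and the median of the 10 was -0.03, beside -0.00464 over all genes tested, of which 49% were above 0. For each of the 10 genes the ranges of the 5 DUSP6 KO and the 5 WT values overlapped, whereas 1.11% of all tested genes had groups without overlap.

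**Figure D1:**
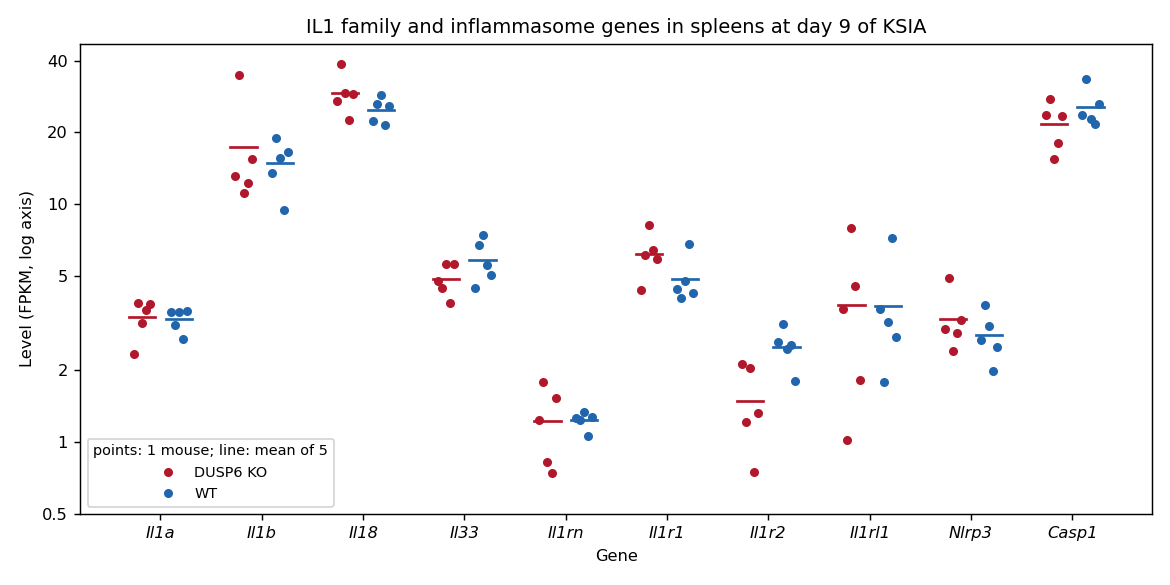
Level of each gene in FPKM (log axis) in 5 DUSP6 KO (red) and 5 WT (blue) spleens, with 1 point per mouse and a line at the mean of 5. The ranges of the genotypes overlap for all 10 genes, and Il1rl1 has the largest ratio of highest to lowest value, from 1.02 to 7.90 FPKM.

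By level, Il18 (mean over the 10 spleens 27.1 FPKM), Casp1 (23.6 FPKM) and Il1b (16.1 FPKM) stood above the other 7 genes, and Il1b was above the next gene, Il1r1 (5.51 FPKM), in 10 of 10 libraries. Il18 was above Casp1 in only 6 of 10 libraries, so the order of this pair did not exceed the spread between mice, whereas Casp1 was above Il1b in 9 of 10. Below them came Il1r1, Il33 (5.34 FPKM), Il1rl1 (3.75 FPKM), Il1a (3.32 FPKM) and Nlrp3 (3.05 FPKM), neighbors that changed places from mouse to mouse: Il1r1 was above Il33 in 5 of 10 libraries, Il33 above Il1rl1 in 7, Il1rl1 above Il1a in 5 and Il1a above Nlrp3 in 7. Il1r2 (2.01 FPKM) and Il1rn (1.23 FPKM) were the lowest, with Nlrp3 above Il1r2 in 9 and Il1r2 above Il1rn in 8 of 10 libraries. The range over libraries was narrowest for Il1a, whose highest value was 1.65 times its lowest, and widest for Il1rl1, at 7.73 times.

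Of the ligands, Il1b was at 13.2, 35.0, 11.1, 12.2 and 15.4 FPKM in DUSP6 KO spleens and at 13.5, 19.0, 15.6, 9.43 and 16.6 FPKM in WT. DUSP6 KO 21 was far above all the others, and the remaining 4 DUSP6 KO values lay within the WT range. The log2 difference of Il1b was 0.12 (95% interval -0.54 to 0.79, limma adjusted p = 0.99), but it was -0.16 without DUSP6 KO 21, -0.03 without WT 77 and 0.22 without WT 67. Reads of Il1b numbered 299 to 1297 per library. Il1bos, an antisense gene whose exons overlap those of Il1b, was at 0.0405 to 0.255 FPKM, and since the use of strand in the counting is not stated, its reads and those of Il1b cannot be told apart.

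Il1a was at 2.33, 3.86, 3.18, 3.58 and 3.79 FPKM in DUSP6 KO spleens and at 3.53, 3.10, 3.52, 2.71 and 3.56 FPKM in WT. The genotypes overlapped widely, with means of 3.35 ± 0.62 and 3.29 ± 0.37 FPKM (SD, n = 5 each) and a 95% interval of the fold difference from 0.801 to 1.27. Gm14023, on the opposite strand with exons that overlap those of Il1a, was at 0.0903 to 0.674 FPKM, and its reads and those of Il1a cannot be told apart where strand was not used. Il18, which encodes the other ligand cut by caspase 1, was at 27.1, 38.6, 29.4, 22.6 and 29.1 FPKM in DUSP6 KO spleens and at 22.2, 26.2, 28.7, 21.4 and 25.8 FPKM in WT. In DUSP6 KO, 4 of 5 values of Il18 were above the WT median, with a log2 difference of 0.22 (SE 0.14, limma unadjusted p = 0.13, adjusted p = 0.95) that was 0.12 without DUSP6 KO 21.

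Il33 was at 4.74, 4.44, 5.60, 3.85 and 5.58 FPKM in DUSP6 KO spleens and at 4.46, 6.72, 7.41, 5.54 and 5.05 FPKM in WT. The groups overlapped, with 2 DUSP6 KO values below every WT value and 2 WT values above every DUSP6 KO value. The log2 difference of Il33 was -0.25 (SE 0.16, limma unadjusted p = 0.14, adjusted p = 0.95), within the spread between mice. It was -0.16 without WT 73 and -0.34 without WT 65 (unadjusted p = 0.050), the ends of its range with single libraries left out. The summed level of 12 reticular stroma markers overlapped as well, at 193 to 466 FPKM in DUSP6 KO against 192 to 357 FPKM in WT. None of the 12 was at 0 in all libraries, and 2 were higher and 0 lower at an unadjusted limma p under 0.05. Ccl19, however, was at 0 FPKM in every WT library and averaged 12.2 FPKM in DUSP6 KO. Nearly all of that mean came from a single DUSP6 KO library at 60.9 FPKM (limma unadjusted p = 0.14). Ccl21a ranged from 7.64 to 133 FPKM over all libraries, so these chemokine genes sway the sum. The part of the 12 markers in the Il33 values was not tested.

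The receptor antagonist gene Il1rn was at 1.24, 1.78, 0.826, 0.742 and 1.54 FPKM in DUSP6 KO spleens and at 1.26, 1.24, 1.34, 1.06 and 1.27 FPKM in WT. The means, 1.23 ± 0.45 and 1.23 ± 0.10 FPKM (SD, n = 5 each), were close, while the DUSP6 KO values lay on both sides of the WT range (highest over lowest 2.40 against 1.26). The 95% interval of the fold difference ran from 0.666 to 1.35. The ratio of Il1rn to Il1b, antagonist to agonist in FPKM, was 0.0942, 0.0510, 0.0745, 0.0606 and 0.0995 in DUSP6 KO and 0.0930, 0.0653, 0.0860, 0.113 and 0.0766 in WT. Il1b was thus at many times the level of its antagonist in every spleen, and the ratios of the genotypes overlapped. The table holds a single value per gene, so the secreted and intracellular forms of the antagonist were not told apart.

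Among the receptors, the decoy receptor gene Il1r2 was at 2.13, 1.21, 2.04, 0.750 and 1.33 FPKM in DUSP6 KO spleens and at 2.64, 3.13, 2.46, 2.55 and 1.81 FPKM in WT. In DUSP6 KO, 5 of 5 values were below the WT median and 3 were below every WT value, and 4 of the 5 WT values were above every DUSP6 KO value. Only WT 83 reached into the DUSP6 KO range. Il1r2 averaged 1.49 ± 0.58 FPKM (SD, n = 5) in DUSP6 KO against 2.52 ± 0.47 FPKM (SD, n = 5) in WT, from 31 to 76 and 62 to 114 reads per library. The log2 difference was -0.78 (SE 0.26, 95% interval -1.37 to -0.20), with an unadjusted limma p of 0.013 and an adjusted p of 0.72 over all genes tested, so it did not pass after adjustment. A two-sided exact permutation test of the single gene gave p = 0.024. When single libraries were left out the log2 difference lay between -0.93 and -0.58 and the unadjusted limma p between 0.0055 and 0.033, and without WT 67 it was -0.70.

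Neutrophils express Il1r2, and the neutrophil markers had log2 differences in the same direction, by unequal amounts. The summed level of 12 neutrophil markers was 577 to 1961 FPKM in DUSP6 KO against 1150 to 4826 FPKM in WT. All 12 were below 0 in log2 difference, 7 at an unadjusted limma p under 0.05 and 0 at an adjusted p of 0.05 or less, with a median of -1.07 and no marker at 0. The 7 were S100a8, S100a9, Mmp8, Ltf, Camp, Ngp and Cebpe, with log2 differences of -1.01 to -1.22. The others were Ly6g (-0.76), Cxcr2 (-0.47), Retnlg (-0.43), Mmp9 (-0.31) and Csf3r (-0.15). Csf3r averaged 21.9 FPKM in DUSP6 KO against 21.3 FPKM in WT. S100a8 and S100a9 had the highest levels of the 12 and weigh most in the sum. Whether neutrophils, mature or not, were fewer was not tested on these RNA values. By flow cytometry of male spleens on day 9, the study saw no significant difference in CD11b+Gr1+ myeloid cells. DUSP6 KO 01 was the lowest of all mice in both Il1r2 and the neutrophil sum, while WT 67, the highest of all in Il1r2, had the lowest neutrophil sum of the WT mice. The part of neutrophils in the Il1r2 values was not tested.

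**Figure D2:**
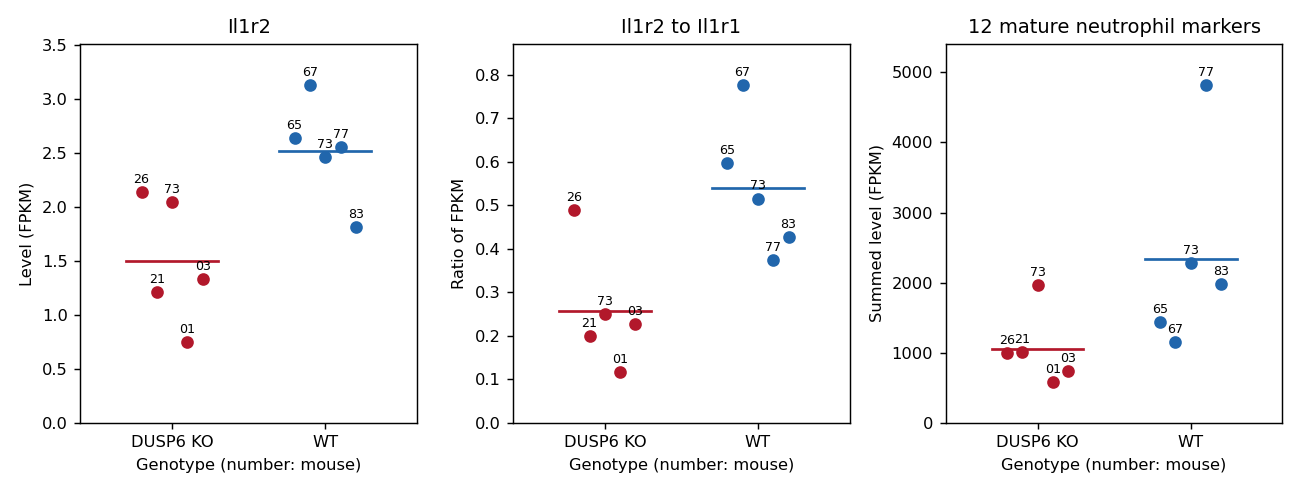
Level of Il1r2 (FPKM), ratio of Il1r2 to Il1r1 (both in FPKM) and summed level of 12 neutrophil markers (FPKM, called mature in the panel title) in each spleen. Points are mice, numbers are their names and lines are the means of 5. For Il1r2, 3 DUSP6 KO values lie below every WT value, and for the neutrophil sum the highest point is WT 77 at 4826 FPKM.

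The signaling receptor gene Il1r1 was at 4.37, 6.10, 8.14, 6.40 and 5.85 FPKM in DUSP6 KO spleens and at 4.41, 4.03, 4.77, 6.81 and 4.24 FPKM in WT. DUSP6 KO was higher in 4 of 5 mice than 4 of the 5 WT mice, and DUSP6 KO 26 and WT 77 were the exceptions. The log2 difference of Il1r1 was 0.34 (SE 0.18, limma unadjusted p = 0.086, adjusted p = 0.94). Without WT 77 it was 0.47, at an unadjusted p of 0.015, and without DUSP6 KO 26 it was 0.46, at an unadjusted p of 0.022, with adjusted p-values of 0.71 and 0.73. Other mice drew it the opposite way, to 0.24 (unadjusted p = 0.20) without DUSP6 KO 73 and 0.28 (unadjusted p = 0.17) without WT 67. The ratio of decoy to signaling receptor, Il1r2 to Il1r1, was 0.488, 0.199, 0.250, 0.117 and 0.227 in DUSP6 KO and 0.598, 0.777, 0.516, 0.375 and 0.428 in WT. All DUSP6 KO ratios but that of DUSP6 KO 26 were below every WT ratio, a description of values already given and not a separate test. Endothelial markers, from cells that express Il1r1, summed to 69.4 to 103 FPKM in DUSP6 KO against 59.3 to 92.4 FPKM in WT, with 1 of 6 higher and 0 lower at an unadjusted limma p under 0.05 and none at 0, and their part was not tested.

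Il1r2, Il1r1 and Il1rl1 lie in this order on the plus strand of chromosome 1 (GRCm38), from 40074079 to 40125231, 40225080 to 40317257 and 40429570 to 40465415. Their log2 differences were -0.78, 0.34 and -0.14, of which only the first passed at the unadjusted threshold. Il1a and Il1b, which lie near each other on the minus strand of chromosome 2, had log2 differences of 0.01 and 0.12.

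The IL33 receptor gene Il1rl1 was the most variable of the 10, at 3.64, 1.02, 7.90, 4.53 and 1.83 FPKM in DUSP6 KO spleens and at 3.64, 1.79, 3.20, 7.22 and 2.75 FPKM in WT. High and low spleens occurred in both genotypes, and the means of 3.78 ± 2.69 and 3.72 ± 2.07 FPKM (SD, n = 5 each) differed by far less than the mice within a genotype. The 95% interval of the fold difference, 0.411 to 2.00, was accordingly the widest of the 10. The log2 difference of -0.14 took either sign when single mice were left out, at 0.23 without DUSP6 KO 21, 0.13 without WT 77, -0.36 without WT 67 and -0.48 without DUSP6 KO 73. The soluble and membrane forms of ST2 were not told apart in the gene table.

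The inflammasome sensor gene Nlrp3 was at 2.99, 4.89, 2.41, 2.88 and 3.25 FPKM in DUSP6 KO spleens and at 2.70, 3.77, 3.07, 1.99 and 2.52 FPKM in WT. DUSP6 KO 21 was again the highest, and WT 77 the lowest. The log2 difference was 0.21 (SE 0.21, limma adjusted p = 0.98), but 0.06 without DUSP6 KO 21, 0.10 without WT 77 and 0.32 without WT 67. The caspase gene Casp1 was at 23.6, 27.7, 15.5, 18.0 and 23.4 FPKM in DUSP6 KO spleens and at 23.7, 33.6, 22.7, 21.7 and 26.4 FPKM in WT. In DUSP6 KO, 2 values of Casp1 (DUSP6 KO 73 and 01) were below every WT value, while the other 3 lay within the WT range. The log2 difference of Casp1 was -0.26 (SE 0.17, limma unadjusted p = 0.16, adjusted p = 0.96), and -0.15 without WT 67, its highest library, or -0.14 without DUSP6 KO 73, its lowest.

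**Figure D3:**
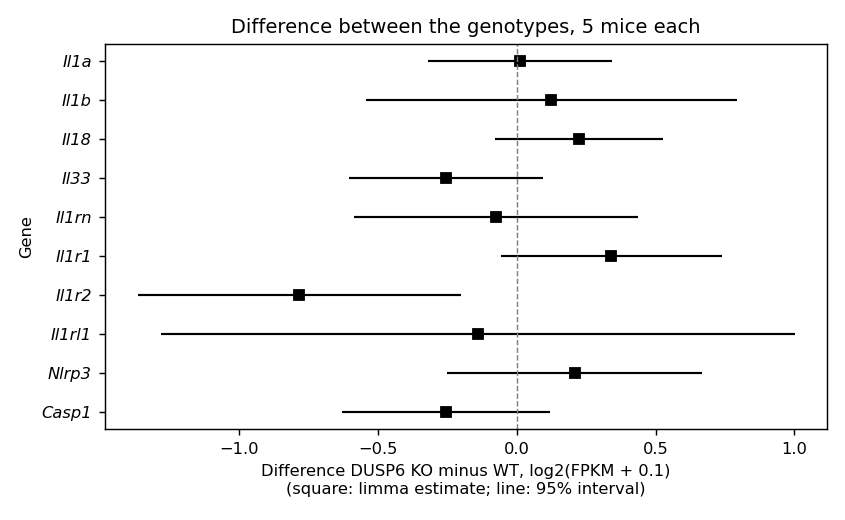
Difference DUSP6 KO minus WT on the log2(FPKM + 0.1) scale for each gene (squares, limma estimates from 5 against 5 mice) with its 95% interval (lines). Il1r2, at -0.78, is the only gene whose unadjusted interval leaves out 0, and Il1rl1 has the widest interval.

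Several of the genes varied together across the 10 spleens, with mice of both genotypes along the same trends. Of the 45 pairs, 25 had a positive Pearson's r on log2(FPKM + 0.1), 11 had a permutation p under 0.05 and 3 passed by r after Benjamini-Hochberg adjustment over the 45. The share of pairs of other genes that would pass was not computed, so these counts do not set the 10 genes apart from genes in general. The pair with the highest r was Il1b and Nlrp3, at r = 0.91 (n = 10, permutation p = 0.00042, adjusted p = 0.0084) and Spearman's rho = 0.77 (permutation p = 0.013, adjusted p = 0.072). With the genotype means removed r was 0.92. Without the 2 spleens farthest from the median of Il1b, DUSP6 KO 21 and WT 77, r was 0.66 (exact permutation p = 0.072), so the strength of the relation rests in part on those mice.

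Il1rl1 went the opposite way, with 7 of its 9 pairs below 0. With Il1b it had r = -0.92 (n = 10, permutation p = 6e-05, adjusted p = 0.0027) and rho = -0.94 (permutation p = 0.00021, adjusted p = 0.0095). The relation was as strong with the genotype means removed (r = -0.92) and held without DUSP6 KO 21 and WT 77 (r = -0.90, exact permutation p = 0.0028). With Nlrp3, Il1rl1 had r = -0.90 (n = 10, permutation p = 0.00056, adjusted p = 0.0084) and rho = -0.85 (permutation p = 0.0029, adjusted p = 0.049), and r = -0.83 without DUSP6 KO 21 and DUSP6 KO 73 (exact permutation p = 0.014). With the genotype means removed this r was -0.92.

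The next pairs with a high r, Il1b with Il18 (r = 0.78, permutation p = 0.013, adjusted p = 0.084; rho = 0.41, permutation p = 0.25, adjusted p = 0.45) and Il18 with Nlrp3 (r = 0.74, permutation p = 0.018, adjusted p = 0.084; rho = 0.55, permutation p = 0.11, adjusted p = 0.32), did not pass after adjustment. Both rest on DUSP6 KO 21 and WT 77, without which r was 0.10 (exact permutation p = 0.80) and 0.11 (exact permutation p = 0.79). With the genotype means removed they were 0.82 and 0.71.

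Casp1 and Il1rn varied with Il1b in part, with less support than the pairs that passed by r. Il1b and Il1rn had r = 0.73 (n = 10, permutation p = 0.017, adjusted p = 0.084) and rho = 0.78 (permutation p = 0.0098, adjusted p = 0.067). Without DUSP6 KO 21 and WT 77 this r was 0.69 (exact permutation p = 0.060). Il1b and Casp1 had r = 0.64 (n = 10, permutation p = 0.052, adjusted p = 0.18) and rho = 0.84 (permutation p = 0.0038, adjusted p = 0.049), and r was 0.92 without DUSP6 KO 21 and WT 77 (exact permutation p = 0.0011). Il1rl1 and Casp1 had r = -0.77 (n = 10, permutation p = 0.010, adjusted p = 0.076) and rho = -0.83 (permutation p = 0.0044, adjusted p = 0.049), with r = -0.66 without DUSP6 KO 21 and DUSP6 KO 73 (exact permutation p = 0.072). Il1rn and Il1rl1 had r = -0.81 (n = 10, permutation p = 0.0051, adjusted p = 0.058) and rho = -0.81 (permutation p = 0.0075, adjusted p = 0.067), with r = -0.88 without DUSP6 KO 01 and DUSP6 KO 73 (exact permutation p = 0.0073). Il1b with Casp1 and Il1rl1 with Casp1 passed after adjustment by rho but not by r. Il1b with Il1rn and Il1rn with Il1rl1 passed by neither.

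Marker sums of several cell types were highest in the same mice as Il1b and Nlrp3. The summed level of 8 dendritic cell markers was 71.6, 84.0, 57.2, 58.2 and 71.3 FPKM in DUSP6 KO and 62.5, 81.1, 62.1, 49.4 and 61.9 FPKM in WT, highest in DUSP6 KO 21 and WT 67 and lowest in WT 77, the same mice that were highest and lowest in Il1b and Nlrp3. The endothelial sum had the same ends (102.6 FPKM in DUSP6 KO 21, 92.4 FPKM in WT 67 and 59.3 FPKM in WT 77), and the reticular stroma sum was also highest in DUSP6 KO 21 and WT 67. The latter sum includes Ccl19 and Ccl21a, with the wide ranges given above, and is not an even reading of its 12 markers. The 8 monocyte markers summed to 117 to 171 FPKM in DUSP6 KO, again highest in DUSP6 KO 21, and to 139 to 160 FPKM in WT, where WT 67 was highest, but the lowest was DUSP6 KO 01. The red pulp macrophage sum had another order, highest in DUSP6 KO 73 (1866 FPKM), the second lowest in Il1b, and lowest in DUSP6 KO 01 (1171 FPKM). The erythroid sum had opposite ends, lowest in DUSP6 KO 21 (10380 FPKM) and then in WT 67 (11988 FPKM). It was highest in DUSP6 KO 73 (52164 FPKM), and WT 77 was the highest of the WT mice (25806 FPKM). All values share the scaling to library size, so these orders are not separate from the erythroid content. Its part in them was not tested. Between the genotypes 3 monocyte markers were higher (Cx3cr1, Ace and Treml4) and 4 lower (Ly6c2, Ccr2, F13a1 and Ms4a4c) at an unadjusted limma p under 0.05. Log2 differences in these monocyte markers reached 0.91 for Ace and -1.11 for F13a1, so the monocyte sum joins markers of opposite direction. At that threshold 1 dendritic cell marker was higher and 0 were lower, and of the 10 red pulp macrophage markers 2 were higher and 0 lower. None of these markers was at 0 in all libraries, and their part in the Il1b and Nlrp3 values was not tested.

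**Figure D4:**
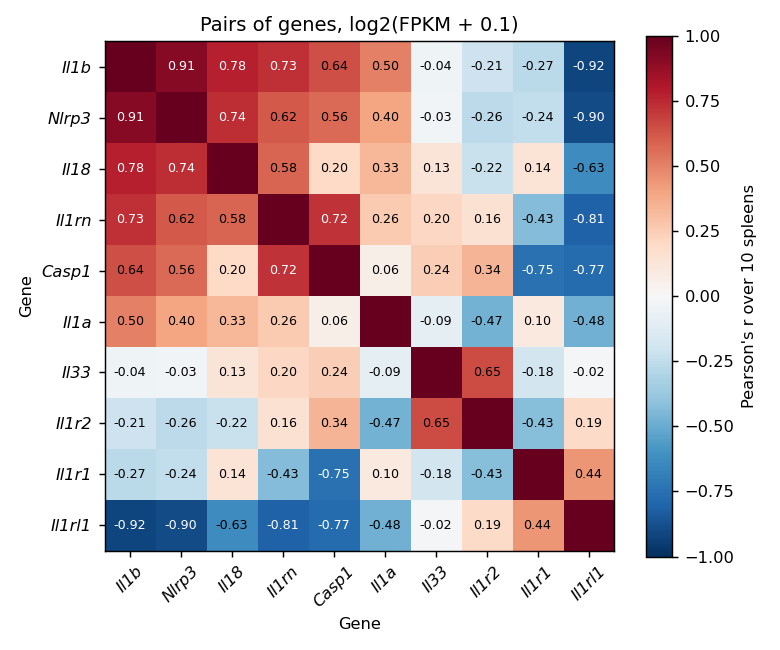
Pearson's r of each pair of the 10 genes over 10 spleens on log2(FPKM + 0.1), colored from -1 (blue) to 1 (red), with r printed in each square off the diagonal. Il1b and Nlrp3 have the highest r (0.91), and the Il1rl1 row holds the lowest values, down to -0.92 with Il1b.

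Erythroid RNA varied along with Il1rl1. The summed level of 6 erythroid markers, among them the globin genes Hba-a1 and Hbb-bt and the heme synthesis gene Alas2, was 36210, 10380, 52164, 24769 and 15286 FPKM in DUSP6 KO against 20093, 11988, 24015, 25806 and 12939 FPKM in WT. DUSP6 KO 73 had the highest and DUSP6 KO 21 the lowest value of both Il1rl1 and the erythroid sum, and none of the 6 markers passed at an unadjusted limma p under 0.05 between the genotypes. The cell types best known for ST2 were examined by their markers as well. The 12 basophil and mast cell markers summed to 21.6 to 29.7 FPKM in DUSP6 KO against 29.7 to 58.7 FPKM in WT. At an unadjusted limma p under 0.05, 4 were lower in DUSP6 KO (Mcpt8, Prss34, Ms4a2 and Hdc). The 2 higher were the mast cell protease genes Mcpt4 and Tpsb2. Mcpt4 averaged 4.54 FPKM in DUSP6 KO against 0.821 FPKM in WT, and Tpsb2 2.14 against 0.378 FPKM. Prss34 averaged 2.58 against 11.9 FPKM, and Cma1 and Kit had log2 differences of -0.06 and -0.07. The sum thus joins markers of opposite direction. The 6 regulatory T cell markers summed to 14.1 to 20.6 FPKM in DUSP6 KO and 17.1 to 22.3 FPKM in WT, with 1 lower. DUSP6 KO 73, the highest in Il1rl1, had the lowest regulatory T cell sum, while WT 77, the second highest in Il1rl1, had the highest basophil and mast cell sum. The 6 markers of group 2 innate lymphoid cells summed to 10.6 to 22.9 FPKM in DUSP6 KO, lowest in DUSP6 KO 73, and to 15.5 to 19.2 FPKM in WT. Of these markers, 3 passed the expression filter and Il5, Il13 and Areg had at most 4 reads in any library. The part of each of these cell types in the Il1rl1 values was not tested.

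**Figure D5:**
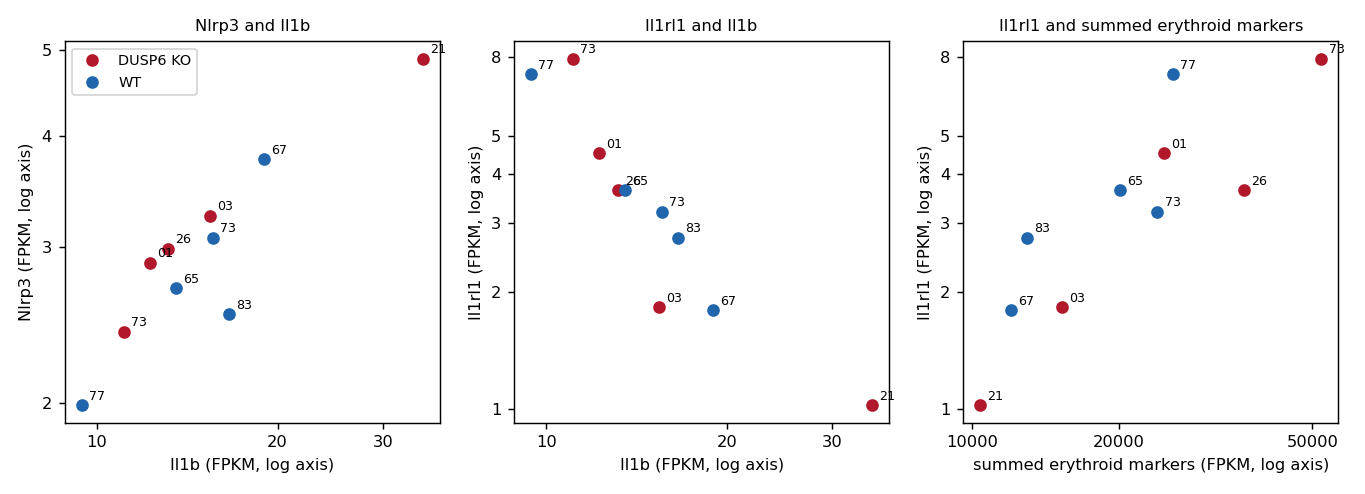
Levels in each spleen (FPKM, log axes; red DUSP6 KO, blue WT, numbers are mice) of Nlrp3 and Il1rl1 against Il1b, and of Il1rl1 against the summed level of 6 erythroid markers. DUSP6 KO 21 has the highest Il1b (35.0 FPKM) and the lowest Il1rl1 (1.02 FPKM), and mice of both genotypes are spread along the same trend.

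The 250 bases before the annotated starts of Il1b, Nlrp3 and Il1rl1 are shown (RefSeq, GRCm38.p6, with 10 of the 10 genes matched by symbol). These genes were picked because they varied together or in opposition across mice, and shared control of them was not tested. Sequences read 5′ to 3′ on the strand of the gene, and capitals mark matches, on either strand, to the TATA box (TATAAA), the AP-1 motif (TGANTCA), the GATA motif (AGATAA) or the NF-kB consensus, motifs that were chosen with the expression results known. The first of 2 annotated starts is shown for Nlrp3 and both starts for Il1rl1.
Il1b, chr2:129371140-129371389, minus strand: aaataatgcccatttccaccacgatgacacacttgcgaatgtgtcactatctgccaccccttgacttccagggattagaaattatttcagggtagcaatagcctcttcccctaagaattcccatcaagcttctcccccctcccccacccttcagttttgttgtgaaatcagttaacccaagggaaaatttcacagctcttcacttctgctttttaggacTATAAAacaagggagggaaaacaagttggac
Nlrp3, chr11:59541319-59541568, plus strand: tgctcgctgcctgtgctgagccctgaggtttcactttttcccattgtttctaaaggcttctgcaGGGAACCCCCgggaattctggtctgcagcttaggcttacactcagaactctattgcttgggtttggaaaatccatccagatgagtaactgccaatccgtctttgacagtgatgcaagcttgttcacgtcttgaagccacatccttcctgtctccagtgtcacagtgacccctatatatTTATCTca
Il1rl1, upstream start, chr1:40429320-40429569, plus strand: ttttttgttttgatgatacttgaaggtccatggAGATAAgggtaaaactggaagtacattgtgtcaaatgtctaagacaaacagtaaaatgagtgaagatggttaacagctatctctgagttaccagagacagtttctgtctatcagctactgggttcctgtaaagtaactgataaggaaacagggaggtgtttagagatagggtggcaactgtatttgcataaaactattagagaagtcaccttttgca
Il1rl1, downstream start, chr1:40439379-40439628, plus strand: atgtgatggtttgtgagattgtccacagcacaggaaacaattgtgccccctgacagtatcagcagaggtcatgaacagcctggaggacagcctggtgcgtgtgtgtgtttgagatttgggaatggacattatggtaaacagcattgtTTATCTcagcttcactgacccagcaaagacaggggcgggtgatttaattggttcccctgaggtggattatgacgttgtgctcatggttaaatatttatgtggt

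The Il1b sequence holds a TATA box 31 to 26 bases before the start, which 12.4% of all 32851 promoters have somewhere in the same window. The Nlrp3 sequence holds an NF-kB match on the opposite strand 186 to 177 bases before the start (3.9% of all promoters hold this motif). It also holds a GATA match, again on the opposite strand, 8 to 3 bases before the start. Both Il1rl1 starts have a GATA match, 217 to 212 bases before the upstream start and, on the opposite strand, 103 to 98 bases before the downstream start, a motif found in 9.99% of all promoters. No AP-1 match (6.75% of all promoters) lies in these 4 windows, and no motif overlaps another in them. These matches describe letters and not binding.

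The genes most like each of the 10 in pattern, by Pearson's r on log2(FPKM + 0.1) over the 10 spleens among the 11446 protein-coding genes that averaged 1 FPKM or more, are given as a description with no test, since the highest of so many values is high by construction. Il1b was most like Ifngr1 (r = 0.98), Marcks (0.97) and Man2b1 (0.96). For Nlrp3 these were Man2b2 (r = 0.96) and Slc29a3 (0.96), and for Casp1 they were Rgs19, Soat1 and Filip1l (r = 0.97 each). Il18 varied most like Efhd1 (r = 0.97), Slc6a6 (0.93) and Lrrn3 (0.93), and Il1a most like Stn1 (0.92), Zfp512b (0.90) and Akr1b8 (0.90).

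Il1rl1 followed Baz1b, Piga and Chek2 with r = 0.99 each, the closest likeness of the 10 genes, and these r values were 0.993 to 0.996 with the genotype means removed. The range of Chek2, a cell cycle checkpoint kinase gene, was 3.89 to 13.7 FPKM. Il1r1 was most like Pccb (r = 0.97), Itgb1 (0.94) and Golga2 (0.94), and Il1r2 most like Xndc1 (0.92), Rnf213 (0.92) and Rnpep (0.91). Il33 had the lowest likeness values, with Spcs2 (r = 0.89), the extracellular matrix gene Dcn (0.87) and Arf4 (0.86). The antagonist gene Il1rn was most like Fut4 (r = 0.95), Tagln2 (0.95) and Fam131a (0.94).

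Most other ligands of the family were not detected. Of Il36a, Il36b, Il36g, Il36rn and Il1f10, 4 had 0 reads in every library, which allows up to 3 reads per library, and only Il36g was tested, at 0.504 to 2.99 FPKM with a log2 difference of -0.70 (SE 0.49, limma unadjusted p = 0.18). Of 8 other receptor and binding protein genes, 6 passed the expression filter and 0 were past the unadjusted limma p of 0.05 in either direction (median log2 difference -0.07). The lowest p among them was that of Il18rap, a subunit of the IL18 receptor, with a log2 difference of -0.25 (SE 0.18, limma unadjusted p = 0.18). The gene of the IL18 binding protein, Il18bp, which neutralizes IL18, had a ratio to Il18 of 0.308, 0.219, 0.342, 0.291 and 0.317 in DUSP6 KO and 0.385, 0.341, 0.332, 0.484 and 0.338 in WT, overlapping through DUSP6 KO 73.

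Of 19 genes that act below the IL1 receptors, 19 were tested and 1 was lower and 0 higher at an unadjusted limma p under 0.05, with a median log2 difference of -0.06. That gene was Irak3, an inhibitor of the pathway, which averaged 5.99 FPKM in DUSP6 KO against 7.32 FPKM in WT spleens (log2 difference -0.30, SE 0.12, limma unadjusted p = 0.028, adjusted p = 0.79). Of 23 other inflammasome sensors, adaptors and effectors, all tested, 2 were higher and 2 lower at that threshold (median log2 difference -0.13). The higher genes were P2rx7, the ATP receptor that triggers the NLRP3 inflammasome (log2 difference 0.26, SE 0.09, limma unadjusted p = 0.012), and Ninj1, which ruptures the membrane of dying cells (0.22, SE 0.10, unadjusted p = 0.044). The lower genes were Card9, an adaptor of fungal receptors (log2 difference -0.59, SE 0.21, limma unadjusted p = 0.020), and Naip2, a sensor of bacterial secretion systems (-0.18, SE 0.08, unadjusted p = 0.047). The adaptor gene Pycard and the pore-forming Gsdmd were not among them, with log2 differences of 0.07 and -0.17. Of the 3 neutrophil serine protease genes whose products can cut IL1 family ligands, 1 was lower at that threshold, Elane, which averaged 26.4 FPKM in DUSP6 KO against 70.4 FPKM in WT (log2 difference -1.14, SE 0.46, limma unadjusted p = 0.032, adjusted p = 0.82), beside the lower neutrophil markers given above. None of the genes in these lists had an adjusted limma p of 0.05 or less.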

How the data were processed

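RNA of 5 DUSP6 KO and 5 WT spleens was sequenced with 1 library per mouse. Per the study's supplementary methods, the authors mapped read pairs by Hisat2, assigned them to genes by featureCounts (version 1.5.0-p3 in the submitters' processing notes) and computed FPKM from count and gene length. The authors deposited these FPKM values, and only they were used. The processing notes name a human build, but gene positions were identical to the mouse GENCODE M21 annotation (GRCm38) for 53585 of the 54495 genes found there (98.3%) and for 10 of the 10 genes described. Whether strand was used in the counting is not given in the sources used here.

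FPKM times gene length was a whole multiple of 1 step per library for 100% of values (within 0.01 of a read), which gave reads per gene. The denominator of FPKM was 0.949 to 1.12 times the recovered reads of a library. No 2 libraries of the same genotype agreed within sampling noise, and pairs across the genotypes were not compared in this way.

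The main test was limma 3.58.1 (R 4.3.3) with a mean-variance trend, fitted to log2(FPKM + 0.1) of genes averaging 0.1 FPKM or more, Benjamini-Hochberg adjusted at 0.05. Exact permutation tests compared single values, and pairs of genes used 100000 permutations. Fold changes on this scale understate those of low genes. The tests were checked on simulated data.

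The genes, gene lists and marker lists were chosen with earlier results of these data known. Named from the lists were the genes with an unadjusted p under 0.05, up to 3 in each direction, or the gene with the lowest p, and up to 3 genes most like each gene in pattern, of which 1 is not reported here. Of the 45 pairs, the 3 with the highest and the 2 with the lowest r were named. The pairs with Casp1 or Il1rn, Pycard, Gsdmd and the single markers and libraries named beside a result were chosen after their values were seen. Alternatives were 2 pseudocounts, 2 filters, 4 scalings, 2 other eBayes settings, array weights, limma voom and leaving out each library.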

Additional observations from a re-analysis of the deposited data

Results flagged for a closer look

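In 20 groups of 5 values (10 genes in DUSP6 KO and in WT), 2 had a library whose gap to its nearest neighbor exceeded Dixon's 95% critical value, where chance alone gives about 1 in 20. For Il1b, DUSP6 KO 21 was at 35.0 FPKM, and the gap took up 0.819 of the range of the 5 DUSP6 KO mice (critical value 0.71). For Il1r1, WT 77 was at 6.81 FPKM, and the gap took up 0.731 of the range of the 5 WT mice. The comparisons of both genes without these libraries are given with the genes.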

How the results depend on the processing

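In every alternative, 0 of the 10 genes passed at an adjusted p of 0.05 or less, and Il1r2 was the only gene lower at an unadjusted p under 0.05. The count of genes higher at that unadjusted threshold was 0 to 1 with each library left out in turn: Il1r1 without DUSP6 KO 26 or WT 77, and Il18 without DUSP6 KO 01. The log2 difference of Il1a turned to -0.0485 with array weights. With libraries left out in turn it lay between -0.0533 and 0.13, that of Il1b between -0.16 and 0.25, that of Il1rn between -0.22 and 0.0708 and that of Il1rl1 between -0.48 and 0.23, so that these 4 directions depend on single mice. The other 6 genes kept their direction under every alternative, Il1r2 between -0.93 and -0.52. Of all genes tested, 8 passed the adjusted threshold with a higher and 7 with a lower level in DUSP6 KO; the counts were 13 higher with array weights and 4 lower with a minimum mean of 1 FPKM, and 6 to 21 higher and 4 to 13 lower with libraries left out, the most without DUSP6 KO 21 and the fewest lower without WT 83. At an unadjusted p under 0.05 the counts of 559 and 646 were 349 and 409 with a minimum mean of 1 FPKM, where fewer genes were tested. The rescaling to counted reads was added after the data were seen. No paired analysis was possible because the genotypes share a single mouse number, 73. Depth limits Il1r2 most, with 31 reads in its lowest library.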
